A study of Mus musculus with 2 samples.

Results

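The interferon-inducible GTPase genes described here are 6 guanylate-binding protein genes (Gbp2, Gbp3, Gbp4, Gbp6, Gbp7 and Gbp9) and 4 immunity-related GTPase genes (Irgm1, Igtp, Iigp1 and Ifi47). They were taken by symbol from the 31053 genes listed in the matrices, and all 10 were present. They were read in lungs of C57BL/6 mice, both labelled with acute lung injury, from 2 droplet single-cell RNA libraries. One library came from a wild-type (WT) source and one from a source labelled p47phox-KI (KI). p47phox, encoded by Ncf1, organises the phagocyte NADPH oxidase, and the nature of the knock-in is not given in the labels. Cells were released with collagenase, freed of erythrocytes, stained with a viability dye and anti-CD45.2 (a leukocyte surface protein), and then sorted. The labels used here give no sort gate, injuring agent, number of animals, age or sex. With 1 library per genotype there was no replicate, so every interval below covers counting error only, and genotype, library and animal cannot be told apart.

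Guanylate-binding proteins and immunity-related GTPases are large GTP-hydrolysing proteins that cells make after interferon, above all interferon gamma. They assemble on the membranes of vacuoles that hold bacteria or parasites, disrupt them, and give access to autophagy proteins and to caspase-11, the intracellular sensor of bacterial lipopolysaccharide. Within the immunity-related GTPases, Irgm1 and Igtp (Irgm3) belong to the regulatory group that guards the cell's own membranes, while Iigp1 (Irga6) and Ifi47 (Irgd) belong to the effector group.

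The 10 genes lie in 4 groups in the mouse genome (GENCODE M21 on GRCm38). Gbp7, Gbp3 and Gbp2 lie on the plus strand of chromosome 3, with Gbp2b between Gbp3 and Gbp2, in the stretch between 142530342 and 142638008. Gbp9, Gbp4 and Gbp6 lie on the minus strand of chromosome 5, between 105077630 and 105293698. Irgm1 (48861968 to 48871683, minus strand), Ifi47 (49076587 to 49096974) and Igtp (58199556 to 58207591) are on chromosome 11, and Iigp1 is on chromosome 18 (60376027 to 60392634). Some counts are uncertain because gene models overlap on the same strand: Gbp4 and Gbp9 overlap each other and Gbp8, and Igtp overlaps Irgm2. Gbp6 and Gbp10 are near-identical copies, as are Tgtp1 and Tgtp2, and reads may be divided between them or lost.

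Unique molecular identifiers (UMIs, each a counted RNA molecule) came to 43376713 over 10473 WT barcodes and to 43445797 over 9120 KI barcodes. Filtering left 7735 WT and 6636 KI cells with median depths of 3307 and 3774.5 UMIs. Cells fell into 29 clusters, of which 26 were named from markers, with the suffix -like. The 6 classes with at least 100 cells per library were endothelial-like (4426 WT and 3638 KI cells), fibroblast-like (1488 and 1249), alveolar type 2-like (450 and 476), pericyte-like (378 and 402), alveolar type 1-like (304 and 155) and smooth muscle-like cells (125 and 129). Some features separated the libraries: 1.62% of WT barcodes carried haemoglobin RNA against 17.2% in KI, and cluster 22, unnamed, held 4 WT and 95 KI cells. RNA of 4 Y-linked genes was seen in 54.8% of 126 KI leukocyte-like cells, in contrast to 0.844% of 237 WT leukocyte-like cells and 0.357% of 3638 KI endothelial-like cells. Ncf1 had 228 UMIs in WT and 213 in KI, and a 3′ tag need not cover the modification. The libraries shared 30 barcode sequences.

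Among the 6 classes, the GTPase genes made up the largest share of RNA in vessel and stromal cells and the smallest in alveolar type 2-like cells. Levels are given as CPM, the usual scaling of a gene's UMIs to a common total, taken over the class. Summed over the 10 genes, endothelial-like cells held 483 CPM in WT and 604 in KI, pericyte-like cells 545 and 423, and fibroblast-like cells 563 and 374. The ranges of these 3 classes overlapped. Smooth muscle-like cells followed at 286 and 258 CPM and alveolar type 1-like cells at 170 and 150, each apart from its neighbours in both libraries. Alveolar type 2-like cells, the surfactant-producing epithelium, were lowest at 30.1 and 32.2 CPM. Their median depth was the highest of the 6 classes (12907 and 14514.5 UMIs), and Sftpc alone stood at 178574 CPM over both libraries. CPM are shares of a class's RNA, so they do not give RNA per cell. The 10 genes had 179 UMIs in 450 WT and 221 in 476 KI alveolar type 2-like cells. Alveolar type 1-like cells had 275 in 304 and 154 in 155. Several single-gene levels of alveolar type 2-like cells (Gbp3, Gbp4, Gbp7, Gbp9 and Iigp1 in both libraries) were more than 20 times under the gene's highest class, a level that free RNA from other cells can reach.

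The chromosome 3 genes were broad. Gbp2 was read at 42.0 CPM in WT and 40.0 in KI endothelial-like cells, 37.2 and 42.7 in fibroblast-like cells, and 41.7 and 31.2 in smooth muscle-like cells, overlapping ranges. Gbp3 had 18.5 and 23.1 CPM in endothelial-like, 17.2 and 20.7 in fibroblast-like and 18.9 and 23.9 in pericyte-like cells. Among the 6 large classes Gbp7 was highest in endothelial-like cells (78.8 and 111 CPM), then in pericyte-like (71.1 and 75.1) and fibroblast-like cells (54.2 and 54.6).

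Among the 6 large classes, the chromosome 5 genes Gbp4 and Gbp9 were largely endothelial. Gbp4 was read at 58.7 CPM in WT and 90.7 in KI endothelial-like cells, and at 0.436 to 15.6 CPM in the other 5 classes. Gbp9 was read at 63.4 and 66.1 CPM in endothelial-like cells, against at most 12.5 CPM in the other 5 classes. Some small classes came nearer on few UMIs. T or NK cell-like cells had Gbp9 at 38.9 and 35.7 CPM (7 and 6 UMIs) and Gbp4 at 55.5 and 5.96 (10 and 1). B cell-like cells had Gbp9 at 36.0 and 63.2 CPM (4 and 6 UMIs) and Gbp4 at 18.0 and 10.5 (2 and 1). The other small classes had Gbp9 at 9.51 CPM or less. The 8 endothelial markers summed to 928 CPM in WT and 830 in KI fibroblast-like cells and to 905 and 2206 CPM in alveolar type 1-like cells, against 19235 and 17723 in endothelial-like cells. The part of endothelial RNA in the low levels was not tested. Gbp6 was scarce everywhere, at 6.18 and 11.1 CPM in endothelial-like and 5.42 and 8.77 in fibroblast-like cells. No Gbp6 UMI was found in alveolar type 1-like cells, a count of 0 that allows up to 1.86 CPM in WT and 2.92 in KI (3 counts).

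The immunity-related GTPase genes followed other patterns. By class, Iigp1 was highest in fibroblast-like (375 CPM in WT and 186 in KI) and pericyte-like cells (301 and 182), ranges that overlap. Smooth muscle-like (135 and 75.0 CPM) and endothelial-like cells (94.8 and 113) followed and overlapped each other. By cluster, the fibroblast-like cluster 10 stood apart at 1388 and 1009 CPM. The other fibroblast-like clusters ran from 103 to 225 CPM in WT and from 79.7 to 173 in KI. Endothelial-like clusters 5 (243 and 385 CPM) and 11 (262 and 189) were above that range. The other endothelial-like clusters were at most 154 and 133 CPM. Irgm1 had no single home, with 47.8 and 45.2 CPM in pericyte-like, 58.8 and 20.4 in alveolar type 1-like and 33.0 and 44.8 in endothelial-like cells. Among the 6 large classes Igtp was highest in endothelial-like cells (39.2 and 53.2 CPM), and its overlap with Irgm2 makes that level uncertain. The few T or NK cell-like cells stood higher, at 100.0 and 113 CPM on 18 and 19 Igtp UMIs. Ifi47 was read at 49.0 and 51.3 CPM in endothelial-like and 42.2 and 36.7 in pericyte-like cells. In the rest of the 6 large classes it was at 17.4 CPM or less. Among the small classes, T or NK cell-like cells stood at 66.6 and 35.7 CPM on 12 and 6 Ifi47 UMIs.

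**Figure D1:**
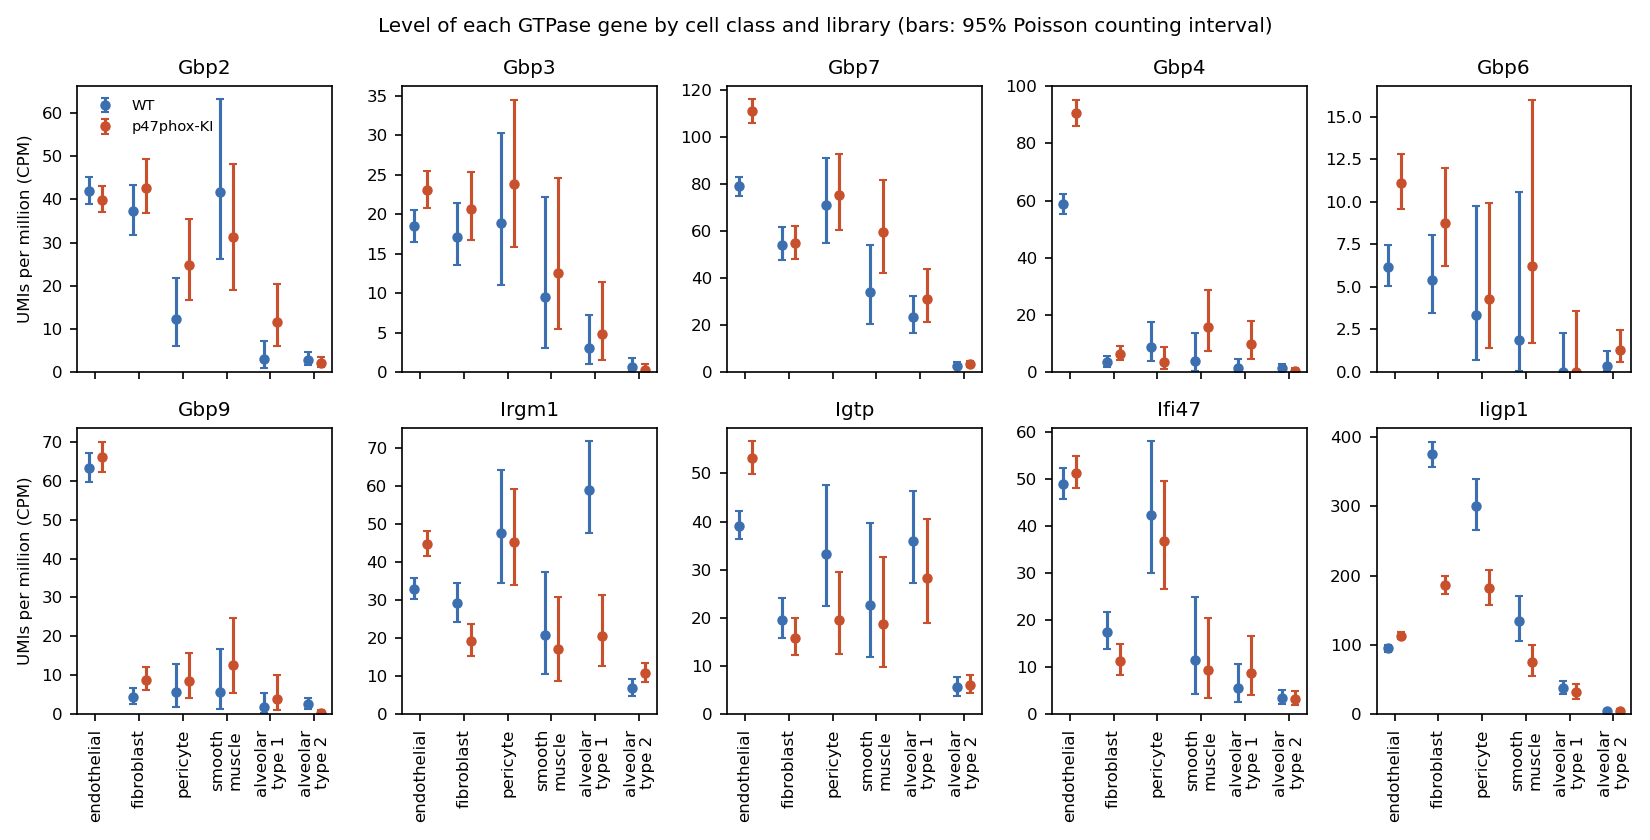
Level of each gene in CPM (vertical axis, linear, a separate scale per gene) in the 6 large marker-defined classes, all names being -like, for the WT (blue) and KI (red) library. Bars are exact 95% Poisson intervals of the count; Gbp4 and Gbp9 stand out in endothelial-like cells, Iigp1 in fibroblast-like and pericyte-like cells, and all 10 genes are at most 10.8 CPM in alveolar type 2-like cells.

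Within the endothelium, the general capillary-like cells (clusters 0, 5, 17 and 26, the capillary cells marked by Gpihbp1 and Plvap) held 579 CPM in WT and 787 in KI over the 10 genes. The aerocyte-like cells (clusters 1, 3, 20 and 27, the thin gas-exchange capillary cells marked by Car4 and Ednrb) held 314 and 331 CPM. Iigp1 differed most between them, with 134 and 173 CPM in general capillary-like but 14.1 and 15.3 in aerocyte-like cells. Gbp3 was read at 22.7 and 32.5 CPM against 8.65 and 6.71. Igtp went the other way, with 35.0 and 47.1 CPM in general capillary-like and 43.3 and 61.8 in aerocyte-like cells. Vein-like cells (cluster 11, which also carried the lymphatic markers Ccl21a and Mmrn1) had more Iigp1 than the general capillary-like and aerocyte-like cells as wholes, 262 and 189 CPM, and a summed level of 712 and 684 CPM.

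Promoter letters bear on genes that are read together. The stretch before the start site is therefore shown for the searched members whose RefSeq entry holds an interferon-type motif. RefSeq promoters (GRCm38.p6) were searched for 6 of the 10 members (Gbp2, Gbp3, Gbp7, Irgm1, Igtp and Ifi47). The 250 bases before each start were searched on both strands. No entry was found for Gbp4, Gbp6 and Gbp9. Iigp1 was left out of the search, so nothing is said here about its promoter. The motif was a pair of GAAA runs set 2 bases apart (TTTC runs when read on the opposite strand), the repeated core of the interferon-stimulated response element that IRF-family factors bind. Of 27025 genes in the table, 3.46% hold the motif before at least 1 start. It was found in 5 of the 6 member genes searched, all but Ifi47. Capitals mark matches within the printed stretch, which is 5′ to 3′ on the gene's strand; overlapping matches run together.
Gbp2, chr3:142620579-142620638, plus strand: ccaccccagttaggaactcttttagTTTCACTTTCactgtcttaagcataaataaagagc
Gbp3, chr3:142559980-142560039, plus strand: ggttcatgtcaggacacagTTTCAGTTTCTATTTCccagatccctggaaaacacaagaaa
Gbp7, chr3:142530258-142530317, plus strand: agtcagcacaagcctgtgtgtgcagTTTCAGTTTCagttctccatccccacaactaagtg
Irgm1, chr11:48871421-48871469, minus strand: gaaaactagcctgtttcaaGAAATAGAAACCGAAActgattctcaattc
Igtp, chr11:58199497-58199555, plus strand: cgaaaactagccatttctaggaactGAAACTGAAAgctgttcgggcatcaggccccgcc
The motif lay on the opposite strand in the 3 chromosome 3 genes, beginning 59 bases before the start in Gbp2, 53 in Gbp7 and 45 and 39 (a pair of overlapping matches) in Gbp3. In the chromosome 11 genes it lay on the gene's own strand, 30 and 24 bases before the start of Irgm1 and 34 before that of Igtp. The second start of Gbp3 in the table held no match. Distances are to the RefSeq starts. By the GENCODE spans given above, the matches of Irgm1 and Gbp2 lie inside the gene. These are letter matches, not measured binding sites.

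At equal depth few cells held several of the genes. Each cell was thinned to 1500 UMIs, so that classes and libraries of different depth could be set side by side, and shallower cells were left out (480 WT and 311 KI fibroblast-like, 165 and 121 general capillary-like cells). In general capillary-like cells, 48.4% of 1826 WT cells and 57.3% of 1548 KI cells then held a UMI of at least 1 member, and 4.49% and 8.98% held at least 3. Unthinned and over all endothelial-like cells the shares with at least 1 member were 65.0% and 70.7%. In aerocyte-like cells the thinned shares were 31.8% and 32.0%, and in fibroblast-like cells 35.3% and 29.4%. Unthinned, the fibroblast-like shares stood the other way round, at 44.2% and 46.5%. Alveolar type 2-like cells gave 4.25% and 5.47%, and none of 447 WT or 475 KI cells held 2 members. Thinning took these cells down from median depths of 12907 and 14514.5 UMIs.

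For single genes, Gbp4 was seen in 9.75% of WT and 16.4% of KI general capillary-like cells at this depth, against 0.595% and 0.746% in fibroblast-like cells. Unthinned, the general capillary-like shares were 22.1% and 33.7%. Gbp7 was seen in 13.3% and 19.1% of general capillary-like cells, and Iigp1 in 22.8% and 14.0% of fibroblast-like cells (27.8% and 24.6% unthinned).

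**Figure D2:**
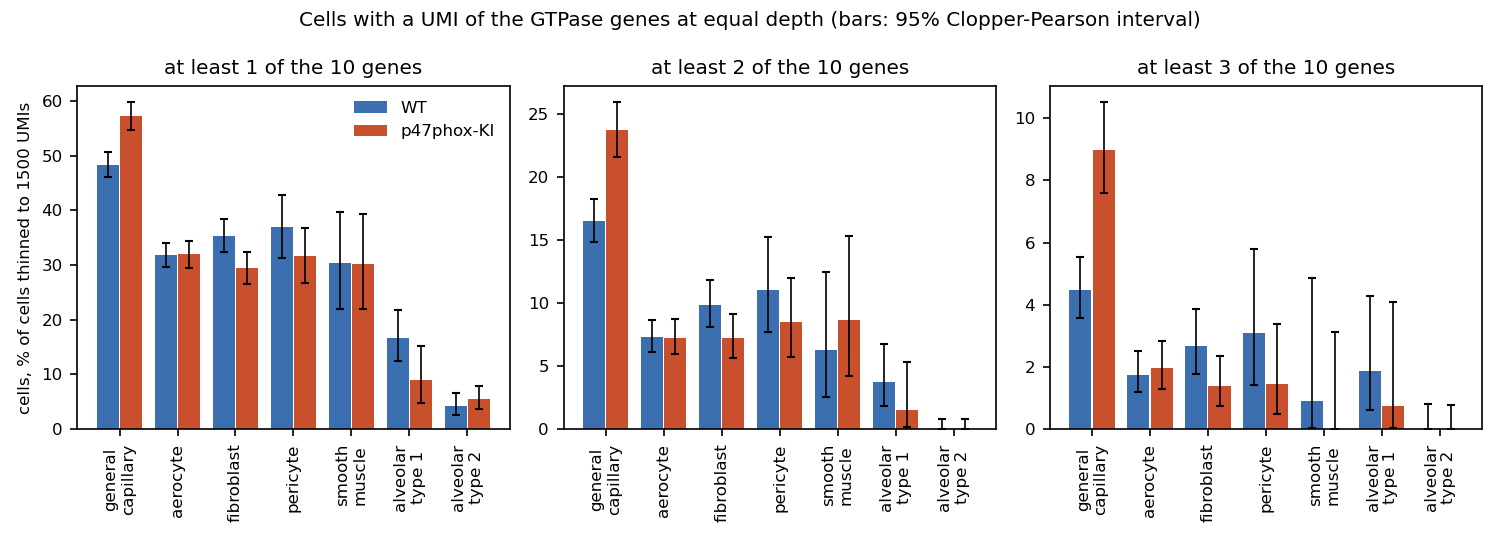
Share of cells (vertical axis, percent, starting at 0) with a UMI of at least 1, 2 or 3 of the 10 genes after thinning every cell to 1500 UMIs, by marker-defined class, WT blue and KI red. Bars on the columns are exact 95% Clopper-Pearson intervals; the KI columns stand above the WT columns in general capillary-like cells and below them in fibroblast-like cells.

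The design text names a comparison of genotypes, and each gene was therefore compared between the libraries as a log2 ratio of KI over WT. Genes with at least 20 UMIs in a class were counted as measured, and a ratio past 0.5 in either direction as higher or lower. Endothelial-like cells had 2 of 10 members higher in KI and 0 lower, where 12.4% of the 13423 measured genes were higher and 5.99% lower. The members' median was 0.38 and that of all genes 0.06. In fibroblast-like cells 3 of 10 members were higher (17.6% of all genes) and 3 lower (7.37%), with a median of 0.11 beside 0.09. Of 7 members measured in pericyte-like cells, 1 was higher (12.7%) and 2 lower (10.9%), with a median of −0.08 beside 0.01.

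In the smaller classes fewer members could be measured. In smooth muscle-like cells 1 of 5 was higher (20.5% of all genes) and 1 lower (10.6%). Alveolar type 2-like cells had 1 of 6 higher (12.5%) and 0 lower (5.9%), and alveolar type 1-like cells 0 of 4 higher (21.7%) and 1 lower (10.4%).

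Of the 6 guanylate-binding protein genes, Gbp3, Gbp4, Gbp6 and Gbp7 were past 0.5 in general capillary-like cells. These were the 4 of 10 members higher in KI there, with 0 lower, beside 15.1% and 6.52% of all genes. Gbp4, a member of the chromosome 5 group, stood at 74.4 CPM in the WT library (658 UMIs) and 130 in the KI library (1114 UMIs). Its log2 ratio was 0.81, with a 95% counting interval in brackets here and below [0.67, 0.95]. Gbp7 was read at 106 and 159 CPM, a ratio of 0.59 [0.46, 0.71]. The scarce Gbp6 had 52 and 113 UMIs, a ratio of 1.17 [0.68, 1.67], and Gbp3 a ratio of 0.52 [0.25, 0.79]. Gbp2 (0.11) and Gbp9 (0.13) had intervals that span 0.

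In aerocyte-like cells Gbp4 was read at 34.8 and 34.5 CPM, a ratio of −0.01 [−0.28, 0.26]. Gbp7 had a ratio of −0.03 [−0.27, 0.21] and Gbp2 one of −0.49 [−0.90, −0.09]. Gbp6 (0.45 [−0.11, 1.02]), Gbp3 (−0.37 [−0.97, 0.22]) and Gbp9 (−0.11 [−0.33, 0.11]) had intervals that span 0. The intervals of Gbp4 and Gbp7 do not overlap between the capillary types, but the difference between the types was not tested across animals. The regulatory GTPase genes were above 0 in both: Irgm1 had a ratio of 0.41 [0.18, 0.63] in general capillary-like and 0.55 [0.29, 0.81] in aerocyte-like cells, and Igtp 0.43 [0.21, 0.65] and 0.51 [0.29, 0.74]. Those were the 2 members past 0.5 in aerocyte-like cells, with 0 lower, beside 10.1% and 7.73% of all genes.

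**Figure D3:**
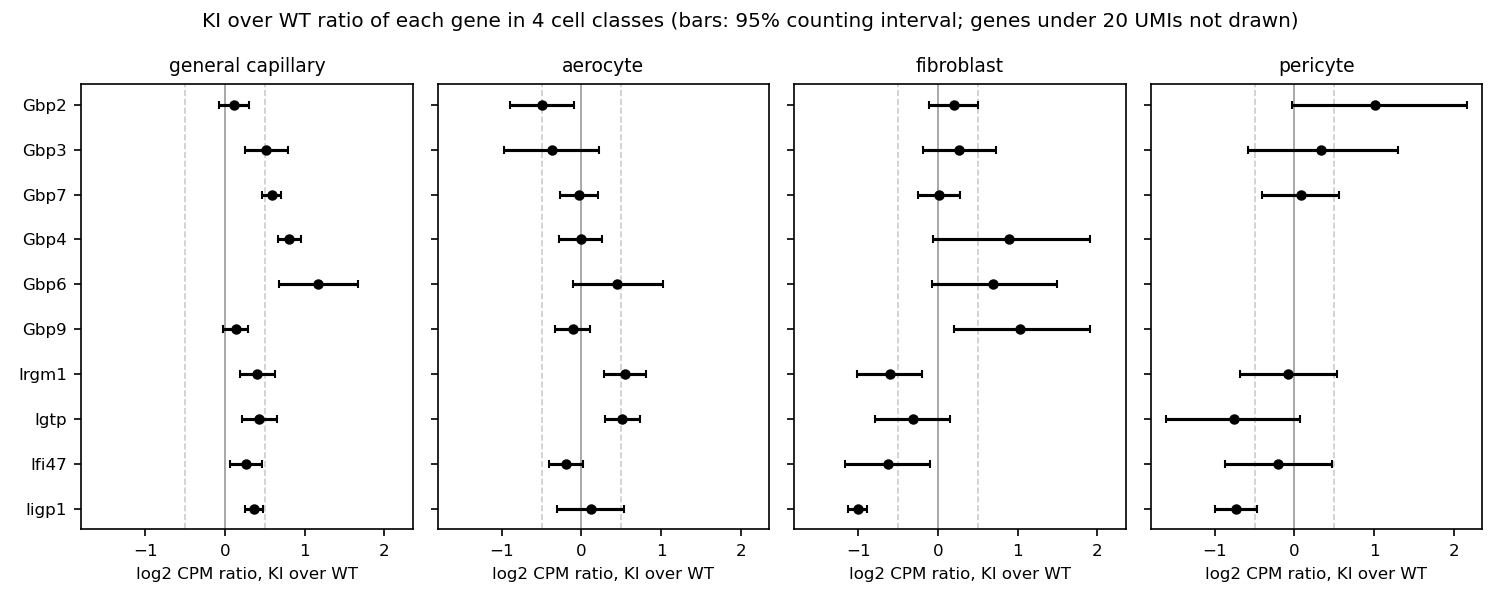
log2 ratio of CPM, KI over WT (horizontal axis), for each measured gene in general capillary-like, aerocyte-like, fibroblast-like and pericyte-like cells, with exact 95% counting intervals; dashed lines mark 0.5 in either direction. All 10 points lie right of 0 in general capillary-like cells, and Iigp1 lies left of 0 in fibroblast-like and pericyte-like cells.

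Over all endothelial-like cells, Gbp4 had 1046 WT and 1546 KI UMIs, a ratio of 0.63 [0.51, 0.74], and Gbp6 one of 0.84 [0.50, 1.20]. Gbp7 (0.49), Irgm1 (0.44), Igtp (0.44), Gbp3 (0.32) and Iigp1 (0.25) had intervals above 0, while Gbp2 (−0.07), Gbp9 (0.06) and Ifi47 (0.07) did not. In vein-like cells 0 of 9 measured members passed 0.5 in either direction (15.2% of all genes higher, 11.4% lower). Cluster 8, an endothelial-like cluster led by Bmx, Cxcl12 and Adam23, took no subtype name. Its leading genes held the artery markers Bmx, Gja5, Hey1 and Gja4 and the vein marker Vwf. This cluster had Gbp4 (0.65) and Gbp7 (0.90) higher and Gbp2 (−0.97) lower, beside 17.5% and 9.35% of all genes.

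The endothelial clusters were not alike. Cluster 5, a general capillary-like cluster led by Icam5, Grrp1 and Adamts9, had the largest Gbp4 ratio among the 8 endothelial-like clusters with 20 UMIs, at 75.7 CPM in WT and 177 in KI (1.23, lower bound 0.96), and Iigp1 at 243 and 385 CPM (0.66 [0.51, 0.82]). Cluster 0, the largest capillary cluster, had Gbp4 at 74.4 and 115 CPM (0.63 [0.44, 0.81]) and Irgm1 at 27.5 and 49.9 (0.86 [0.56, 1.16]). Cluster 20, a small aerocyte-like cluster of 61 WT and 49 KI cells led by the antiviral genes Rsad2 and Ifit1bl1, was lower in KI for Gbp4, with 182 and 91.1 CPM (interval of the ratio −1.74 to −0.28). Its summed level of 1115 and 873 CPM was the highest among the aerocyte-like clusters in both libraries. Igtp was higher in KI in all 8 endothelial-like clusters in which it was measured, with ratios from 0.12 to 0.55 and intervals above 0 in 3. Irgm1 was higher in KI in 5 of the 8 clusters and lower in 3, among them cluster 5 (−0.20 [−0.60, 0.19]) and cluster 17 (−0.33 [−1.18, 0.51]). Iigp1 was higher in 4 and lower in 4, with intervals below 0 in cluster 17 (154 and 108 CPM, −0.51 [−0.87, −0.16]) and in the vein-like cluster 11 (−0.47 [−0.74, −0.21]).

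In stromal cells Iigp1 was lower in KI. WT fibroblast-like cells held 1662 Iigp1 UMIs against 829 for KI, and the ratio was −1.01 [−1.13, −0.89]. Pericyte-like cells held 271 and 213 (−0.73 [−0.99, −0.46]) and smooth muscle-like cells 71 and 48 (−0.84 [−1.40, −0.30]). Irgm1 (29.1 and 19.1 CPM, −0.61 [−1.02, −0.20]) and Ifi47 (17.4 and 11.2 CPM, −0.63 [−1.17, −0.10]) were also lower in KI fibroblast-like cells. Gbp9 (19 and 39 UMIs, 1.03 [0.21, 1.91]), Gbp4 (15 and 28 UMIs, 0.90 [−0.06, 1.91]) and Gbp6 (24 and 39 UMIs, 0.70 [−0.07, 1.49]) were past 0.5 on few UMIs. The other members past 0.5 in mural cells also rested on few UMIs, namely Gbp2 (11 and 29, 1.02 [−0.03, 2.17]) and Igtp (30 and 23, −0.76 [−1.62, 0.07]) in pericyte-like cells and Gbp7 (18 and 38, 0.80 [−0.05, 1.69]) in smooth muscle-like cells. The erythroid markers summed to 4.06 CPM in WT and 1961 in KI fibroblast-like cells; their part in these ratios was not tested.

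Much of the fibroblast Iigp1 came from cluster 10, led by Saa1, Slc39a14 and Serpina3c and also by Tnc, which encodes the matrix protein tenascin C, and the matrix protease gene Adamts4. It held 294 WT and 123 KI cells, 19.8% and 9.85% of the fibroblast-like cells, and 71.2% and 49.9% of their Iigp1 UMIs. Within it the WT level of Iigp1 was 1388 CPM and the KI level 1009, with a ratio of −0.46 [−0.62, −0.30]. Iigp1 was also lower in KI in 4 of the 5 other fibroblast-like clusters, among them clusters 2 (103 and 80.4 CPM, −0.36 [−0.74, 0.01]), 7 (162 and 135 CPM, −0.26 [−0.55, 0.03]) and 18 (225 and 88.6 CPM, −1.35 [−2.21, −0.54]). Cluster 15, of low depth, had a ratio of 0.46 [−0.45, 1.38] from 45 UMIs. With equal cluster weights in both libraries the pooled Iigp1 ratio was −0.42, and without cluster 10, an alternative chosen after seeing the data, it was −0.38. Irgm1 was lower in KI in cluster 10, with 58 and 6 UMIs (−2.22 [−3.72, −1.01]), and its pooled ratio was −0.02 without that cluster. Of the fibroblast-like Ifi47 UMIs, 48.1% in WT and 18.0% in KI came from cluster 10, and the pooled Ifi47 ratio was −0.14 without it.

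**Figure D4:**
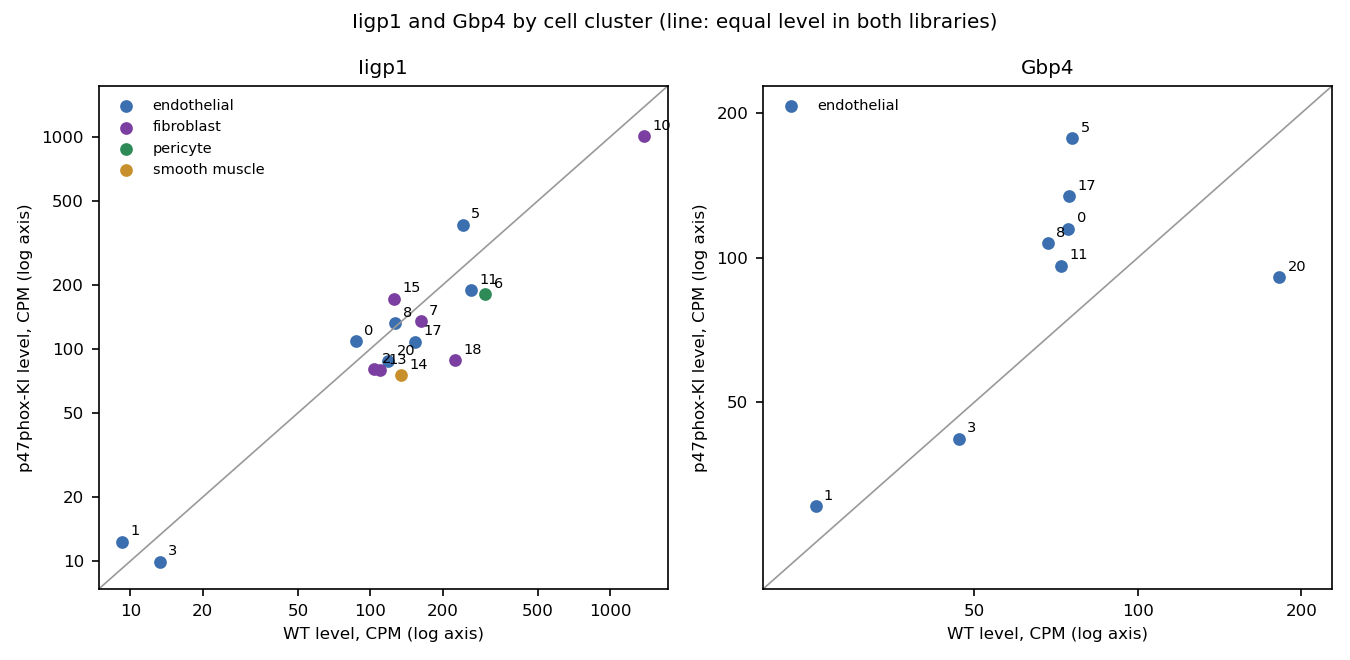
WT level (horizontal) against KI level (vertical), in CPM on log axes, of Iigp1 and Gbp4 in each named endothelial-like, fibroblast-like, pericyte-like or smooth muscle-like cluster with at least 20 cells per library and 20 UMIs; numbers are clusters and the line marks equal levels. Fibroblast cluster 10 is far above the rest for Iigp1 (1388 and 1009 CPM). For Gbp4, clusters 3 and 20 lie below the line and clusters 0, 1, 5, 8, 11 and 17 above it.

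In the alveolar epithelium the member past 0.5 was Irgm1, in opposite directions. Alveolar type 1-like cells, the flat gas-exchange epithelium, had 95 Irgm1 UMIs in 304 WT cells and 21 in 155 KI cells (58.8 and 20.4 CPM), a ratio of −1.53 [−2.28, −0.83]. Keeping the barcodes marked as doublets brought this to −0.66. Beside it, the 8 alveolar type 2 markers summed to 987 CPM in WT and 2613 in KI alveolar type 1-like cells, and the erythroid markers to 1902 and 153; their part was not tested. In alveolar type 2-like cells Irgm1 had 40 and 74 UMIs (6.72 and 10.8 CPM), a ratio of 0.68 [0.11, 1.27].

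Leukocytes, in which these GTPases are best studied, were few, with 237 WT and 126 KI cells, and are given as counts. T or NK cell-like cells held 75 member UMIs in 51 WT cells and 46 in 40 KI cells (417 and 274 CPM). Igtp, with 18 and 19 UMIs (100.0 and 113 CPM), was the member with the most UMIs there. The erythroid markers held 3195 UMIs (17745 CPM) in these WT cells and 5 UMIs (29.8 CPM) in the KI cells; their part in the CPM values was not tested. B cell-like cells held 18 and 32 member UMIs, macrophage or monocyte-like cells 22 and 35, and neutrophil-like cells 17 and 2. The Y-linked reads of the KI leukocyte-like cells, given above, apply to all of these counts.

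Of 15 further genes of the families, 10 were in the matrices by symbol. In general capillary-like cells 7 were measured, of which Gbp5 (98 and 172 UMIs, 0.86 [0.49, 1.23]), Gbp8 (65 and 90 UMIs, 0.52 [0.04, 1.00]) and Tgtp2 (17 and 59 UMIs, 1.84 [1.05, 2.72]) were higher in KI and Gvin1 (54 and 35 UMIs, −0.58 [−1.23, 0.06]) was lower, beside 15.1% and 6.52% of all genes. Gbp5 is known as a promoter of inflammasome assembly. Irgm2, the remaining regulatory GTPase, had ratios of 0.37 [0.13, 0.60] in general capillary-like and 0.44 [0.18, 0.71] in aerocyte-like cells, and of 0.23 [−0.18, 0.64] in fibroblast-like cells. It was also past 0.5 in cluster 8 (0.90 [0.23, 1.59]), in alveolar type 2-like (0.85 [−0.20, 1.98]) and in alveolar type 1-like cells (0.74 [−0.37, 1.86]). In fibroblast-like cells the chromosome 18 neighbours of Iigp1 were not lower in KI: Gm4951 had a ratio of 0.14 [−0.18, 0.45] and F830016B08Rik one of 0.32 [0.05, 0.58].

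Interferon gamma itself was hardly detected: Ifng had 14 UMIs in WT and 7 in KI kept cells, of which 12 and 7 were in T or NK cell-like cells. Of its receptor chains, Ifngr1 (235 and 162 CPM in general capillary-like cells, −0.53 [−0.63, −0.43]) was lower in KI and Ifngr2 (44.0 and 63.8 CPM, 0.54 [0.35, 0.73]) higher. The receptor's kinase genes Jak1 (−0.11 [−0.20, −0.02]) and Jak2 (0.16 [−0.07, 0.38]) were nearer 0. Irf1, a transcription factor induced by interferon and a driver of GTPase genes, was read at 141 and 238 CPM (0.76 [0.66, 0.86]). The feedback inhibitor Socs1 had a ratio of −0.17 [−0.63, 0.28].

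Irf1 read differently elsewhere. In aerocyte-like cells Irf1 had a ratio of 0.37 [0.24, 0.50]. In fibroblast-like cells Irf1 was higher in KI (71.1 and 96.9 CPM, 0.45 [0.23, 0.66]) while Iigp1 was lower. Alveolar type 1-like cells had Irf1 at 115 and 50.6 CPM (−1.18 [−1.65, −0.73]), lower in KI as Irgm1 was.

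Among 19 other interferon gamma targets measured in general capillary-like cells, 2 were higher in KI and 3 lower, beside 15.1% and 6.52% of all genes, with a median of 0.08 against 0.42 for the 10 members. The farthest from 0 were Batf2 (37 and 71 UMIs, 0.99 [0.40, 1.60]), the chemokine Cxcl10 (483 and 244 UMIs, −0.94 [−1.16, −0.71]) and Ido1 (51 and 29 UMIs, −0.77 [−1.48, −0.08]). Of 17 type I interferon targets in the same cells, with the same shares of all genes, 8 were higher and 0 lower, with a median of 0.47, led by the antiviral genes Oasl2 (1.29 [1.13, 1.44]), Ifit1 (1.21 [1.03, 1.40]) and Oasl1 (0.95 [0.27, 1.65]). In aerocyte-like cells 1 of 15 type I targets was higher and 3 lower (10.1% and 7.73% of all genes), with a median of 0.09. The list of type I sensing genes also holds Isg15 and Usp18, which are themselves induced by interferon. It had 4 of 9 higher in general capillary-like cells (15.1% of all genes), Isg15 and Usp18 among them. Isg15 (1.04 [0.86, 1.21]), Usp18 (0.61 [0.34, 0.89]) and Stat2 (0.61 [0.47, 0.75]) were farthest from 0.

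The partners with which these GTPases act at vacuoles were mostly within 0.5 of equal. Of 17 autophagy, ubiquitin and caspase-11 genes measured in general capillary-like cells, 0 were higher by 0.5 and 1 was lower, the ubiquitin ligase gene Traf6 (261 and 176 UMIs, −0.52 [−0.80, −0.24]), beside 15.1% and 6.52% of all genes, with a median of 0.04. In fibroblast-like cells 0 of 16 passed 0.5 in either direction (17.6% of all genes higher, 7.37% lower). In aerocyte-like cells 3 of 17 were lower (7.73% of all genes): Trim21 (34 and 16 UMIs, interval of the ratio −1.95 to −0.10), Casp4, which encodes caspase-11 (326 and 194 UMIs, −0.66 [−0.92, −0.40]), and Traf6 (−0.52 [−0.87, −0.17]).

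Across 21 class-by-library sums with at least 20 cells, the members' levels on the log2(CPM + 1) scale followed their mean to unequal degrees. The correlation with the mean was highest for Gbp7 (r = 0.83) and Gbp2 (r = 0.83) and lowest for Irgm1 (r = 0.45). The closest pair was Igtp and Ifi47 (r = 0.85), and the farthest was Gbp9 and Irgm1 (r = −0.22). Among 11846 other genes the patterns most like the members' mean included those of Ptpra (r = 0.96), Herc6 (0.92), Setd2 (0.90), Zfp101 (0.89), Map4k4 (0.89), Trim35 (0.88), Ncoa3 (0.88), Mfsd14a (0.87) and Mau2 (0.87). None of those named was in the interferon lists used here, which are short and do not cover all interferon-induced genes. The points share 2 libraries and differ in depth, so these values describe the sums and carry no test.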

How the data were processed

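Raw UMI counts per gene and barcode were deposited by the authors as 10x matrices; per the submitters' processing notes, Cell Ranger 2.0, Seurat 2.3.4 and R 3.5.3 were used with the mm10 build, while the file headers give software version 3.0.2. The use made of each tool is not given in the sources used here. The deposited barcodes all held at least 500 UMIs.

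Barcodes with at least 200 genes and at most 10% mitochondrial UMIs were kept. The doublet caller's own threshold marked 0 barcodes in either library, so the highest-scoring barcodes (877 WT, 665 KI) were marked instead, a share set from the number of barcodes at the rate usual for this platform, and removed. Counts were scaled to 10000 per cell and clustered with the Leiden method (scanpy 1.11.5, leidenalg 0.10.2, 30 components, 15 neighbours, resolution 1), leaving the family and interferon genes out of the variable genes. Clusters were named by the mean share of each marker's highest cluster (at least 0.25, at least 2 times the next class, 3 markers or more; 1.25 times for endothelial subtypes). This replaced a planned mean-fold rule after the clusters had been seen. UMIs were summed per class and library. CPM carry exact Poisson intervals, shares Clopper-Pearson intervals and log2 ratios exact conditional binomial intervals, all at 95% (scipy 1.17.1). Calls of 0.5 used 0.5 counts added to each sum, and a gene needed 20 UMIs. The steps were tested on simulated data. Gene positions came from GENCODE M21, which held 31011 of the listed identifiers.

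All 10 members were named, further family genes past 0.5, a fixed set of interferon gamma sensing genes, at most the 3 genes farthest from 0 of each other list, and the 10 genes most like the members' mean; some genes that this rule names are not reported here. The members and lists were chosen with earlier results of these data known. There was 1 library per genotype, so no test was made.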

Additional observations from a re-analysis of the deposited data

Results flagged for a closer look

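Irgm1 and Iigp1 had counting intervals on opposite sides of equal in different classes. The log2 ratio of Irgm1, KI over WT, was 0.44 in endothelial-like and 0.68 in alveolar type 2-like cells, but −0.61 in fibroblast-like and −1.53 in alveolar type 1-like cells. The ratio of Iigp1 was 0.25 in endothelial-like cells, but −1.01 in fibroblast-like, −0.73 in pericyte-like and −0.84 in smooth muscle-like cells. Within the endothelium the Iigp1 ratio was above 0 in 4 clusters and below it in 4, and it was −0.47 in vein-like cells. Irgm1 was higher in KI in 5 of the 8 endothelial-like clusters and lower in 3. Across the alternative settings the fibroblast-like ratio ran from −0.98 to −0.02 for Irgm1 and from −1.34 to −0.38 for Iigp1. The values nearest 0 came without cluster 10, which had 58 WT and 6 KI Irgm1 UMIs. In alveolar type 1-like cells the Irgm1 ratio ran from −1.76 to −0.66, the latter with doublets kept. With 1 library per genotype the difference between classes was not tested.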

How the results depend on the processing

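No paired analysis was possible because each genotype had 1 library and the result comes from no test. Of 42 member ratios, 12 had the other sign under at least 1 alternative, all of them within 0.5 of equal as reported (0.48 at most), and 0 of the 15 past 0.5 did. With the stricter cell filter 36 of 42 stayed within their counting interval, 37 with the mean of per-cell CPM and 39 with each library clustered alone. The fibroblast-like Iigp1 ratio of −1.01 was −1.34 with the stricter filter, −0.49 with each library clustered alone, −0.42 with the same cluster weights and −0.38 without cluster 10. The endothelial-like Gbp4 ratio of 0.63 ran from 0.46 to 0.76.

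Counts of members past 0.5 moved more. The number of members measured and the share of all genes can change with each setting and are not given here. The counts below therefore cannot be set beside the shares of all genes given above. Removing clusters 5, 15 and 20, or cluster 10, was chosen after seeing the data; for these and all other settings the cause was not tested. In endothelial-like cells the number higher in KI was 4 with the mean of per-cell CPM, 4 without clusters 5, 15 and 20, and 0 with a log2 limit of 1. In fibroblast-like cells the number higher was 0 with at least 100 UMIs and 1 with the limit of 1, and the number lower was 1 with the same cluster weights, 1 with the mean of per-cell CPM, 0 without cluster 10 and 1 with the limit of 1; the median was −0.32 with at least 100 UMIs. In pericyte-like cells the number higher was 2 with doublets kept, 0 with the stricter filter, 0 with no mitochondrial filter, 2 with no UMI minimum, 0 with at least 100 UMIs and 0 with the limit of 1, and the number lower was 1 with the stricter filter, 1 with at least 100 UMIs and 0 with the limit of 1. In smooth muscle-like cells the number higher was 0 with the stricter filter, 4 with no UMI minimum, 0 with at least 100 UMIs and 0 with the limit of 1, and the number lower was 3 with no mitochondrial filter, 2 at resolution 0.5, 3 with the mean of per-cell CPM and 0 with the limit of 1. In alveolar type 2-like cells the number higher was 3 with doublets kept, 2 with no mitochondrial filter, 2 with no UMI minimum and 0 with the limit of 1, and the number lower was 1 with doublets kept, 1 with no mitochondrial filter, 1 with centring on the median gene and 3 with no UMI minimum. In alveolar type 1-like cells the number higher was 6 with doublets kept, 1 with the stricter filter, 2 with no mitochondrial filter and 5 with no UMI minimum. The number lower was 2 with no mitochondrial filter, 2 with each library clustered alone and 4 with the mean of per-cell CPM. The median was 0.69 with doublets kept and 0.65 with no UMI minimum. With at least 100 UMIs only Irgm1 was measured there, and the value of −1.50 is its ratio alone.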
